A study of Mus musculus with 6 samples.

Results

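Eph receptors and ephrins were described in mesenchyme sorted from fetal mouse liver at 2 late stages of gestation. The genes were chosen by name: 4 receptors (Epha3, Epha4, Epha7 and Ephb4) and 3 ligands (Efna5, Efnb1 and Efnb2), 7 of the 22 Eph and ephrin genes and of 54532 genes in the deposited table. There were 3 libraries at embryonic day 18 (E18) and 3 at embryonic day 16 (E16), lettered A, B and C on each day. Every library came from livers of CD-1 mice of the genotype Sm22-Cre/ROSA26RYFP, in which Cre driven by the Sm22 (Tagln) promoter turns on a yellow fluorescent reporter in smooth muscle and related mesenchyme and in their descendants. Livers were digested with enzymes and reporter-positive cells were sorted, so both days share the transgenes, the digestion and the sort, and the groups differ by day alone as far as the labels say. Nothing in the labels tells separate litters, pools or repeat preparations apart, and a p-value here therefore reflects the spread from library to library, some of which may be technical.

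Eph receptors are the large family of receptor tyrosine kinases that bind ephrins on neighbouring cells. A-class ephrins are held in the membrane by a lipid anchor, whereas B-class ephrins span it. Ephrins of either class can signal back into their own cell, so that contact between cells can send signals both ways. In developing tissues this signalling sorts cells, sets borders between them and guides axons and vessels, and in the vasculature Ephb4 marks veins and its partner Efnb2 marks arteries.

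The promoters of 4 of the 7 chosen genes are shown. Among the 7, they belong to both A-class receptors that passed the test (Epha3 and Epha4) and to the most abundant receptor and ligand (Ephb4 and Efnb1). Each window is RefSeq sequence of build GRCm38.p6, 5′ to 3′ on the gene's own strand. It runs from 250 bases before to 50 bases after the start site used for it. For Efnb1 that site differs from the GENCODE M21 start given below (99136130), and the window ends before the latter. The windows lie at chr16:63864126-63864425 (minus strand), chr1:77515039-77515338 (minus strand), chr5:137349859-137350158 (plus strand) and chrX:99135811-99136110 (plus strand). Capitals mark the GC box, GGGCGG or its reverse complement CCGCCC.
Epha3: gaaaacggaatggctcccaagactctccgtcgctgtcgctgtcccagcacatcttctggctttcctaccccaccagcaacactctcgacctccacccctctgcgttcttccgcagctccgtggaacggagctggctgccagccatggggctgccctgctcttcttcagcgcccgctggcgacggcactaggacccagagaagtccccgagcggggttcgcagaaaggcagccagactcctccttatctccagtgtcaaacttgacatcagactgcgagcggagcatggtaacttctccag
Epha4: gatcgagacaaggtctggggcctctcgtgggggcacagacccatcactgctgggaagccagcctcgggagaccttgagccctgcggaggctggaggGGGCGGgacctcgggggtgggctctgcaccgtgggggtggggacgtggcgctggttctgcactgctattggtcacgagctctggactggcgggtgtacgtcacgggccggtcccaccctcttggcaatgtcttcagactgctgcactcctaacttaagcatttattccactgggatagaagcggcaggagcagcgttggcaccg
Ephb4: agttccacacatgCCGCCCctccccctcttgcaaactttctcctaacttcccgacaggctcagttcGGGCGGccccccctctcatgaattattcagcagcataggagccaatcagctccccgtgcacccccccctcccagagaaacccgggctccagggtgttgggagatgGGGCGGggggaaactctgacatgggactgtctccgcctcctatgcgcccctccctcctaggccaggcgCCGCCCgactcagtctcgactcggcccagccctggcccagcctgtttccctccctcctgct
Efnb1: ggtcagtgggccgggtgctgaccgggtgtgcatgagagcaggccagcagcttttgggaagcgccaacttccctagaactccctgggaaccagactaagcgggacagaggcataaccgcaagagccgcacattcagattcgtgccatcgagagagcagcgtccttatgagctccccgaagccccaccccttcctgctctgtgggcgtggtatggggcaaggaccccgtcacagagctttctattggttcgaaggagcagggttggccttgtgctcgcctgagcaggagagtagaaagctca
The GC box occurred 4 times in the Ephb4 window and 1 time in the Epha4 window, no match overlapped another, and these letters were not in the Epha3 or Efnb1 window. The Efna5 window held 4, the Efnb2 window 3 and either window of Epha7 1, and 35.9% of 27025 promoters of the same length held at least 1. All 7 genes had promoters rich in CpG. They held from 14 CpG dinucleotides in the Ephb4 and Efnb1 windows to 38 in the Efna5 window, against a median of 7 over all promoters. These matches describe the sequence and do not show that a factor binds there.

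Expression is given as TPM, transcript abundance per gene length scaled to a fixed library total. Reads recovered from the table ranged from 14587543 to 18281942 per library at E18 and from 21130195 to 22626884 at E16. Every E18 library was thus less deep than every E16 library. A member rested on 38 reads (Epha4 in E16 replicate B) to 1323 reads (Epha3 in E18 replicate B). The summed TPM of 12 mesenchyme genes was 3471 ± 1883 at E18 and 537 ± 198 at E16 (SD, n = 3 each), and 11 of them were called higher at E18. For 14 hepatocyte genes the sums were 767 ± 331 at E18 and 4912 ± 4010 at E16, and for 10 erythroid genes they were 15648 ± 4410 and 5912 ± 914. Transcripts of other liver cells were thus present on both days. Tagln, whose promoter drives the Cre, averaged 3.14 ± 0.258 TPM at E18 and 1.06 ± 0.408 TPM at E16, with 67.9% of its exon length under exons on the other strand. In such bulk samples a larger share of cells of 1 type and more RNA per cell cannot be told apart.

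All 7 genes were detected in all 6 libraries, and each had its 3 E18 values above its 3 E16 values. That order held for 18.4% of the 17824 genes tested, and the opposite order for 8.05%. Epha3 and Epha4, receptors of the A class, rose with means 10.1 and 9.43 times as high at E18 as at E16. For the other 5 genes the ratio of means lay between 2.86 and 3.82, and none of these passed the test. The test was limma on log2(TPM + 1), adjusted by Benjamini-Hochberg over all 17824 genes with calls at an adjusted p under 0.05. It called 2 of the 7 genes higher and 0 lower, against 3.08% of all genes tested higher, 0.387% lower and 3.47% in either direction. With unadjusted p under 0.05, 7 of the 7 were higher, against 15.2% of all genes tested. On the log2(TPM + 1) scale the median difference was 1.49 over the 7 genes and 0.07 over all genes.

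Epha3, a receptor that prefers A-class ephrins and is known from heart and axon development, spans 63543534 to 63864175 on the minus strand of chromosome 16 (mm10). It stood at 13.2, 33.3 and 11.8 TPM in E18 libraries A, B and C, against 1.11, 1.44 and 3.22 TPM in E16 libraries A, B and C. E18 replicate B was far above the other E18 libraries, and the lowest E18 library was still above every E16 library. Epha3 averaged 19.4 ± 12.02 TPM at E18 and 1.92 ± 1.13 TPM at E16 (SD, n = 3 each). The difference was 2.72 ± 0.46 on the log2(TPM + 1) scale (SE, limma adjusted p = 0.0358, higher in 3 of 3 E18 libraries).

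Epha4, a receptor that binds ephrins of both classes, lies on the minus strand of chromosome 1 at 77367185 to 77515088. It had 7.12, 15.4 and 6.29 TPM in E18 libraries A, B and C, against 1.0, 0.710 and 1.34 TPM in E16 libraries A, B and C. By mean it was the lowest of the 7 genes at E16 and the fifth at E18. The means were 9.59 ± 5.02 TPM at E18 and 1.02 ± 0.316 TPM at E16 (SD, n = 3 each), and the difference was 2.31 ± 0.39 on the log2(TPM + 1) scale (SE, limma adjusted p = 0.0356). Without E18 replicate C both were still called, at limma adjusted p = 0.0451 and 0.0447. Without E16 replicate A, B or C or E18 replicate A or B neither was, with limma adjusted p from 0.0678 to 0.107 for Epha3 and from 0.0810 to 0.106 for Epha4.

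Epha7, a receptor for A-class ephrins that patterns the neural tube and its maps, spans 28813131 to 28967499 on the plus strand of chromosome 4. It had 3.81, 6.68 and 3.52 TPM in E18 libraries A, B and C, against 0.889, 1.08 and 1.87 TPM in E16 libraries A, B and C. The days did not overlap, but the difference of 1.29 ± 0.35 on the log2(TPM + 1) scale did not pass (SE, 95% interval 0.47 to 2.12, limma adjusted p = 0.0887).

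Ephb4, the receptor of veins and the closest partner of Efnb2, lies on the plus strand of chromosome 5 at 137350109 to 137378669, with 0.711% of its exon length under an exon of Zan on the other strand. It was the most abundant of the 7 genes in every library. It stood at 20.9, 46.5 and 14.7 TPM in E18 libraries A, B and C, against 6.25, 9.96 and 9.42 TPM in E16 libraries A, B and C. The means were 27.4 ± 16.9 TPM at E18 and 8.54 ± 2.005 TPM at E16 (SD, n = 3 each). The difference of 1.43 ± 0.41 on the log2(TPM + 1) scale did not pass (SE, 95% interval 0.46 to 2.40, limma adjusted p = 0.101).

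Among the ligands none passed the test. Efnb1, a transmembrane ephrin that acts in skeletal and craniofacial mesenchyme, spans 99136130 to 99148991 on the plus strand of chromosome X. It was the most abundant ligand, with 18.8, 29.8 and 10.7 TPM in E18 libraries A, B and C, against 3.73, 4.71 and 7.07 TPM in E16 libraries A, B and C. Its difference was 1.68 ± 0.39 on the log2(TPM + 1) scale (SE, 95% interval 0.75 to 2.60, limma adjusted p = 0.0627). Without E18 replicate C, the lowest E18 library for this gene, it was called (difference 2.04, limma adjusted p = 0.0451).

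Efna5, a lipid-anchored ephrin best known for repelling axons in the retinal map, lies on the minus strand of chromosome 17 at 62604184 to 62881317. It had 5.00, 18.9 and 10.6 TPM in E18 libraries A, B and C, against 2.72, 1.83 and 4.98 TPM in E16 libraries A, B and C. E18 replicate A stood barely above E16 replicate C, and the other E18 libraries were well above it. The difference was 1.49 ± 0.50 on the log2(TPM + 1) scale (SE, 95% interval 0.32 to 2.66, limma adjusted p = 0.144).

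Efnb2, the transmembrane ephrin of arteries and of vessel wall cells, spans 8617434 to 8661242 on the minus strand of chromosome 8. It had 5.26, 8.01 and 2.93 TPM in E18 libraries A, B and C, against 1.64, 1.14 and 2.88 TPM in E16 libraries A, B and C. E18 replicate C and E16 replicate C were nearly level, and the difference of 1.11 ± 0.41 on the log2(TPM + 1) scale was the smallest among the 7 genes (SE, 95% interval 0.14 to 2.08, limma adjusted p = 0.183). The exons of the 6 members other than Ephb4 lie under no exon of another gene in GENCODE M21.

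**Figure D1:**
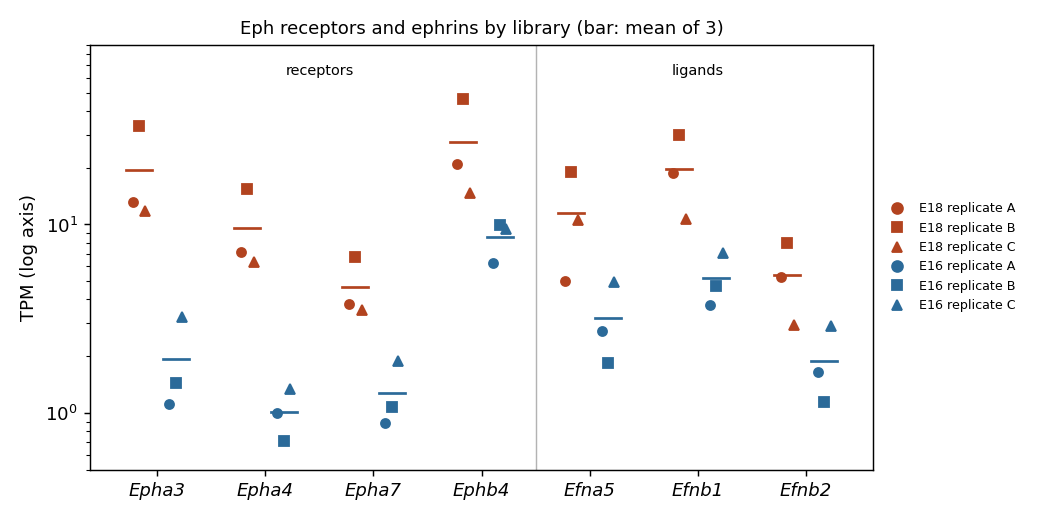
TPM of the 7 genes on a log axis, with 1 point per library, E18 in orange and E16 in blue, marker shape for the replicate letter and a bar at the mean of 3. Every E18 point of a gene lies above its E16 points, narrowly for Efna5 (5.00 against 4.98 TPM) and Efnb2 (2.93 against 2.88 TPM).

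Libraries of 1 day differed in a shared way. E18 replicate B was the highest E18 library for 7 of 7 genes, and E18 replicate C was the lowest for 6 of 7. At E16, replicate C was the highest for 6 of 7 genes, and Ephb4 was highest in replicate B. The summed TPM of 7 mesenchyme genes (Col1a1, Col1a2, Col3a1, Pdgfra, Pdgfrb, Dcn and Lum) had the same extremes. It was 2396, 5269 and 1978 TPM in E18 libraries A, B and C, against 369, 445 and 712 TPM in E16 libraries A, B and C.

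By mean level the order at E18 was Ephb4, Efnb1, Epha3, Efna5, Epha4, Efnb2 and Epha7. At E16 it was Ephb4, Efnb1, Efna5, Epha3, Efnb2, Epha7 and Epha4. Every pair of neighbours in either order overlapped in range over the libraries. Within single libraries Ephb4 was above Efnb1 in 3 of 3 at E18 and in 3 of 3 at E16. Epha3 was above Efna5 in 3 of 3 libraries at E18, whereas at E16 Efna5 was above Epha3 in 3 of 3.

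Receptors were next set against ligands within each library, where scaling and depth cancel. The 4 receptors together had 45.1, 102 and 36.3 TPM in E18 libraries A, B and C, against 9.25, 13.2 and 15.9 TPM in E16 libraries A, B and C. The 3 ligands together had 29.0, 56.7 and 24.2 TPM in E18 libraries A, B and C, against 8.10, 7.68 and 14.9 TPM in E16 libraries A, B and C. Receptor transcripts therefore exceeded ligand transcripts in all 6 libraries, but among the chosen genes this rests on Ephb4. Without Ephb4, the other 3 receptors together were below the 3 ligands in all 6 libraries, narrowly in E18 replicate B. With all 4 receptors the ratio was 1.62 ± 0.158 at E18 and 1.31 ± 0.358 at E16 (SD, n = 3 each). The days overlapped because E16 replicate B stood at 1.72. This overlap also rests on Ephb4, since without it every E18 ratio lay above every E16 ratio. Over the whole family of 22 genes the ratio was 2.64, 2.37 and 2.17 in E18 libraries A, B and C. It was 1.30, 2.25 and 1.36 in E16 libraries A, B and C, and the days overlapped. No test was made of these sums, and with 3 libraries a day an exact permutation test cannot give p below 0.1.

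Single pairs known to bind each other behaved unequally. The ratio of Epha3 to Efna5 was 2.64, 1.76 and 1.12 in E18 libraries A, B and C, against 0.408, 0.786 and 0.646 in E16 libraries A, B and C, so the receptor exceeded the ligand at E18 and was below it at E16. The ratio of Epha4 to Efna5 was 0.943 ± 0.430 at E18 and 0.342 ± 0.0633 at E16 (SD, n = 3 each). That of Epha4 to Efnb2 was 1.81 ± 0.408 at E18 and 0.565 ± 0.0866 at E16. For these 3 ratios the lowest E18 value lay above the highest E16 value. Each of the 3 has Epha3 or Epha4, the called members, as its receptor, so this separation is not a result apart from those calls. In the venous and arterial pair, Ephb4 to Efnb2, the ratio was 4.93 ± 0.914 at E18 and 5.26 ± 3.01 at E16, and the days overlapped. Epha7 to Efna5 also overlapped, at 0.482 ± 0.242 at E18 and 0.431 ± 0.141 at E16.

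**Figure D2:**
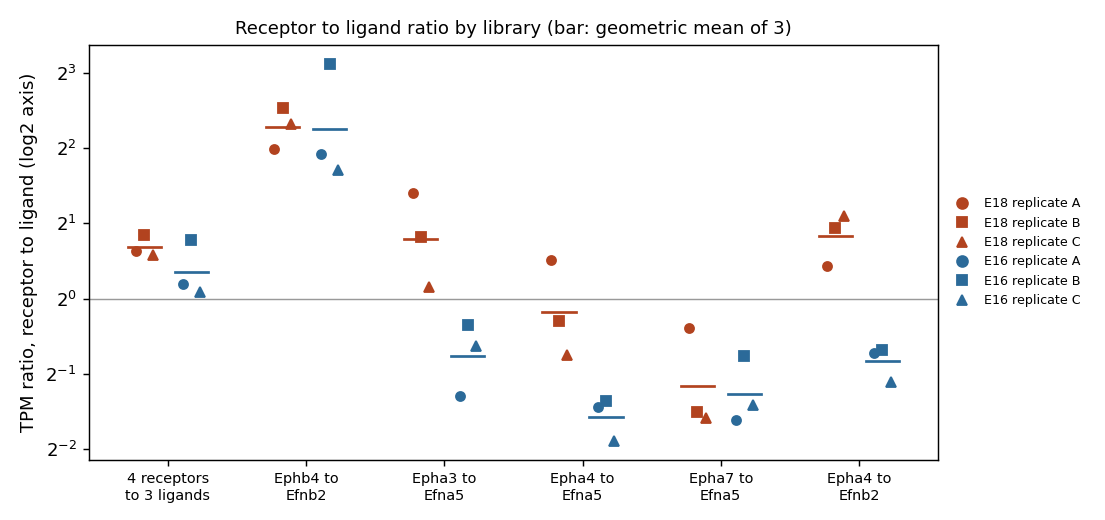
Receptor to ligand ratios of TPM on a log2 axis, with 1 point per library, E18 in orange and E16 in blue, and a bar at the geometric mean of 3. The ratios of Epha3 and Epha4, the called members, to Efna5 and of Epha4 to Efnb2 separate the days. Ephb4 to Efnb2 (3.99 to 5.81 at E18, 3.27 to 8.72 at E16) does not separate them.

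Because the mesenchyme genes themselves differed between the days, each member was also set against them in the same library. The geometric mean of the 7 mesenchyme genes was 173 TPM at E18 and 26.5 TPM at E16, a difference of 2.71 in mean log2 TPM without a pseudocount. On that scale Epha3 differed by 3.33 and Epha4 by 3.17, more than the mean of these 7 genes. The other 5 members differed by 1.503 (Efnb2) to 1.88 (Epha7), less than that mean. The 7 leave out Myh11, Actg2, Des, Acta2 and Tagln, whose E18 to E16 ratios of mean TPM were 14.6, 12.8, 9.86, 8.29 and 2.97. That ratio was 10.1 for Epha3 and 9.43 for Epha4. A list of 8 smooth muscle genes summed to 371 ± 133 TPM at E18 and 48.1 ± 25.0 TPM at E16 (SD, n = 3 each). Of these genes 6 were called higher, against 3.08% of all genes tested. The list includes 2 genes, Cnn1 and Lmod1, that reached 1 TPM in no E16 library and so entered the test through E18 alone. Lmod1 is among the 6 called, and Cnn1 is not. Relative to the 7 mesenchyme genes Epha3 was at −3.32 ± 0.0758 at E18 and −3.94 ± 0.277 at E16 (log2, SD, n = 3 each), above in 3 of 3 E18 libraries. Ephb4 was at −2.83 ± 0.135 at E18 and −1.66 ± 0.371 at E16, below in 3 of 3 E18 libraries. Epha7, Efnb1 and Efnb2 were also lower in every E18 library on this relative scale, and Epha4 and Efna5 overlapped between the days. The subtracted mean rose by 2.71, whereas the median difference of all genes tested was 0.07 on the log2(TPM + 1) scale. A gene level between the days would therefore also be lower at E18 on this relative scale. The share of all genes that were lower on it was not counted. With the mean log2(TPM + 1) of the mesenchyme genes as a covariate, the day difference was 0.11 for Epha3 and 0.64 for Epha4 and neither passed (limma adjusted p = 0.999 for both). In that fit it turned negative for Epha7 (−0.16), Ephb4 (−0.85), Efna5 (−0.57), Efnb1 (−0.43) and Efnb2 (−0.63), again with limma adjusted p = 0.999. The score and the day move together in these libraries, so their parts cannot be told apart.

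**Figure D3:**
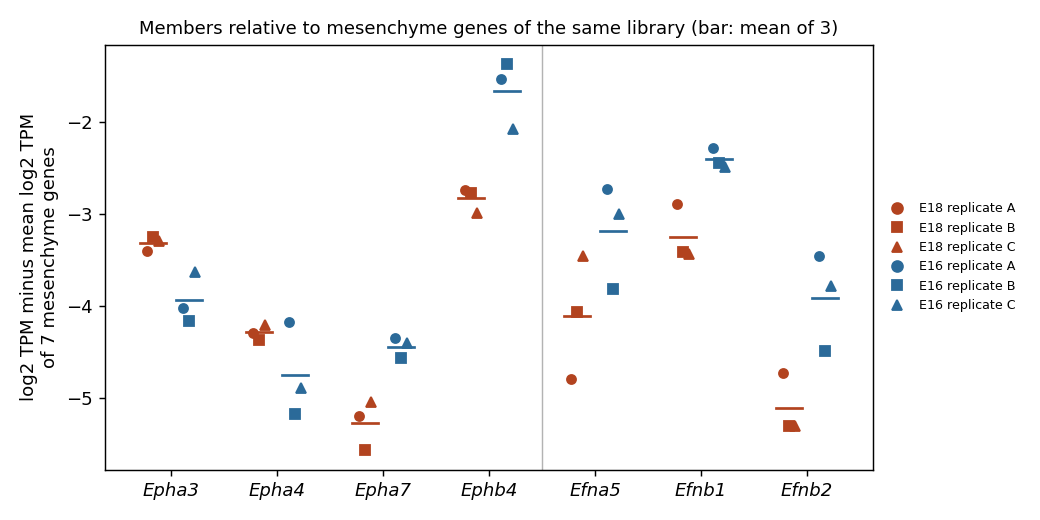
Log2 TPM of each member minus the mean log2 TPM of 7 mesenchyme genes in the same library, with 1 point per library, E18 in orange and E16 in blue, and a bar at the mean of 3. Epha3 is higher at E18 on this scale, while Epha7, Ephb4, Efnb1 and Efnb2 are lower. The subtracted mean rose by 2.71 from E16 to E18, so a gene level between the days would also be lower on this scale.

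Markers of cells other than mesenchyme are given beside these values. Endothelial cells are the classical source of Ephb4 and Efnb2. The summed TPM of 12 endothelial genes was 41.2 ± 10.7 at E18 and 39.9 ± 9.19 at E16 (SD, n = 3 each), and 2 of them passed the filter on low values. These 2 made up most of the sum and differed in opposite directions, so the sum hides their differences and those of the other genes. Nrp1, a coreceptor for semaphorins, averaged 19.0 ± 10.9 TPM at E18 and 3.40 ± 2.44 TPM at E16 (limma adjusted p = 0.0586). Egfl7, a protein secreted by endothelium, averaged 16.9 ± 5.14 TPM at E18 and 34.3 ± 7.08 TPM at E16 (limma adjusted p = 0.0769). Cdh5, the adhesion molecule that defines endothelium, was at 0.270, 0.260 and 0 TPM in E18 libraries A, B and C and listed at 0 in every E16 library. Also under the filter, Tek averaged 2.01 ± 2.01 TPM at E18 and 0.506 ± 0.289 TPM at E16. Lyve1 averaged 0.557 ± 0.363 TPM at E18 and 0.123 ± 0.133 TPM at E16. Of the endothelial genes under the filter Dll4 alone had the lower mean at E18 (0.324 ± 0.377 against 0.386 ± 0.479 TPM). The neural and glial list summed to 5.77 ± 4.79 TPM at E18 and 3.40 ± 0.834 TPM at E16, with its highest value of 11.2 TPM in E18 replicate B. The cholangiocyte list of 7 genes summed to 27.7 ± 8.43 TPM at E18 and 13.7 ± 5.26 TPM at E16. Of its 3 tested genes 1 was called higher, Krt19, a keratin of bile ducts, with 20.6 ± 7.99 TPM at E18 and 5.07 ± 0.642 TPM at E16 (limma adjusted p = 0.0347). Krt7 was higher without a call (limma adjusted p = 0.0621). Cdh1, also tested, went the other way, with 0.692 ± 0.415 TPM at E18 and 7.34 ± 5.02 TPM at E16 (limma adjusted p = 0.0578). Epcam was listed at 0 in every library but E18 replicate C (0.532 TPM). The leukocyte and macrophage list of 6 genes summed to 90.3 ± 38.8 TPM at E18 and 52.6 ± 8.36 TPM at E16, and Adgre1 and Itgam were listed at 0 in all 6 libraries. Of its 3 tested genes 1 was called higher, Lyz2, the lysozyme of macrophages, with 6.86 ± 1.88 TPM at E18 and 1.12 ± 0.720 TPM at E16 (limma adjusted p = 0.0444). The megakaryocyte list of 5 genes summed to 62.5 ± 38.6 TPM at E18 and 35.1 ± 22.0 TPM at E16, with none of 4 tested genes called. The part of these lists, and of the erythroid genes, in the members' differences was not tested. A fit with the hepatocyte score as covariate is given below. That score moves with the day in these libraries, so their parts cannot be told apart.

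The other 15 genes of the family were read from the same fit. Of these, 11 passed the filter, 2 were called higher and 0 lower, against 3.08% of all genes tested called higher. All 11 had a positive fold, as did 57.0% of all genes tested. The number called was 2 without E18 replicate C, 1 without E16 replicate B and 0 without any other single library. Epha8, a receptor studied mainly in the brain, had 37.0, 26.4 and 21.5 TPM in E18 libraries A, B and C, against 4.60, 4.98 and 3.18 TPM in E16 libraries A, B and C, a difference of 2.46 ± 0.27 on the log2(TPM + 1) scale (SE, limma adjusted p = 0.0261). At E18 its mean of 28.3 ± 7.92 TPM was level with that of Ephb4, and E18 replicate B, the highest library for each of the 7 members, was not its highest. Ephb3, a receptor for B-class ephrins, had 5.66, 11.2 and 5.91 TPM in E18 libraries A, B and C, against 0.816, 0.907 and 1.30 TPM in E16 libraries A, B and C (2.05 ± 0.35 on the log2(TPM + 1) scale, limma adjusted p = 0.0358).

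Of the receptors that did not pass, Epha2 averaged 5.43 ± 3.67 TPM at E18 and 0.794 ± 0.126 TPM at E16 (limma adjusted p = 0.0759). Epha2, a receptor of epithelia, reached 1 TPM in no E16 library, so it entered the test through E18 alone. Ephb2, a receptor for B-class ephrins, averaged 3.58 ± 2.50 TPM at E18 and 0.686 ± 0.582 TPM at E16 (limma adjusted p = 0.149). Epha1 averaged 7.25 ± 4.61 TPM at E18 and 2.1 ± 0.751 TPM at E16 (limma adjusted p = 0.224), with 6.01% of its exon length under an exon of Zyx. Ephb6, which lacks kinase activity, averaged 2.67 ± 0.4996 TPM at E18 and 0.966 ± 0.722 TPM at E16 (limma adjusted p = 0.216). Epha10 stood nearly level, at 1.21 ± 0.395 TPM at E18 and 1.13 ± 0.10 TPM at E16, with a 95% interval of −0.68 to 0.75 for the log2(TPM + 1) difference. Ligands outside the 7 were read likewise. Efnb3 averaged 5.80 ± 1.89 TPM at E18 and 3.01 ± 1.70 TPM at E16, and Efna2 averaged 3.11 ± 0.412 TPM at E18 and 0.994 ± 1.10 TPM at E16. Efna1 averaged 1.98 ± 0.718 TPM at E18 and 0.506 ± 0.806 TPM at E16, and Efna4 averaged 1.64 ± 1.16 TPM at E18 and 0.722 ± 0.358 TPM at E16. None of these 4 passed (limma adjusted p from 0.174 to 0.540). Ephb1 exceeded 1 TPM in E18 replicate B alone (1.81 TPM). Epha5, Epha6 and Efna3 stayed under 1 TPM throughout, and Epha6 is listed at 0 in all 6 libraries.

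Over the whole family the median difference was 1.43 for the 11 receptors tested and 1.11 for the 7 ligands tested on the log2(TPM + 1) scale, against 0.07 for all genes. Of the receptors 4 were called higher, and of the ligands 0, against 3.08% of all genes tested. With unadjusted p under 0.05, 10 of the 11 receptors and 5 of the 7 ligands were higher, against 15.2% of all genes tested. These counts include the 7 members. Whether receptors and ligands differ in their change was not tested.

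**Figure D4:**
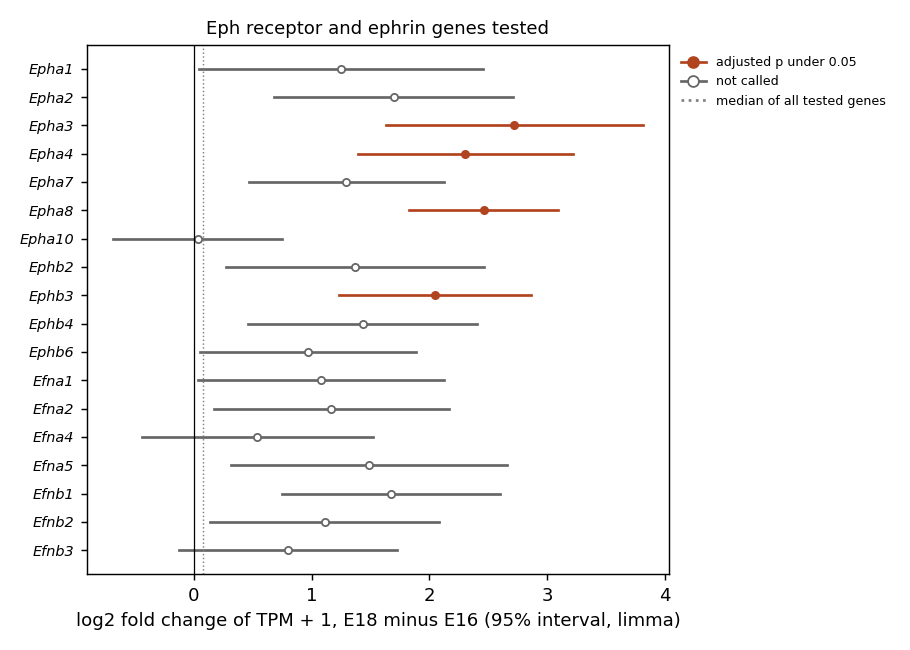
Log2 fold change of TPM + 1, E18 minus E16, with its 95% interval for the 18 Eph and ephrin genes that passed the filter, filled orange where limma's adjusted p was under 0.05. The dotted line marks the median of all genes tested (0.07), and the 4 called genes are Epha3, Epha4, Epha8 and Ephb3.

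Genes through which Eph receptors act were read from the same fit. A list of 40 partners held kinases, adaptors, exchange factors, phosphatases, the protease Adam10 and proteins that bind the tails of B-class ephrins. Of these, 34 passed the filter, 1 was called higher and 0 lower, a share near the 3.08% of all genes tested that were called higher. At an unadjusted p under 0.05, 7 were higher and 1 lower, against 15.2% of all genes tested higher. The median difference of the partners was 0.17 on the log2(TPM + 1) scale, against 0.07 for all genes. The called gene was Src, a kinase recruited by Eph receptors and ephrins, with 12.9, 19.3 and 10.5 TPM in E18 libraries A, B and C, against 1.68, 3.31 and 3.96 TPM in E16 libraries A, B and C (1.94 ± 0.35 on the log2(TPM + 1) scale, SE, limma adjusted p = 0.0376). E18 replicate B was its highest library, as for the 7 members. With quantile normalization its adjusted p was 0.0533 (limma). Without E16 replicate A, B or C or E18 replicate A or B, the limma adjusted p of Src was 0.0783 to 0.119, and without E18 replicate C it was 0.0469.

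The partners with the next smallest p did not pass. Kalrn, a guanine nucleotide exchange factor, averaged 3.85 ± 1.66 TPM at E18 and 0.807 ± 0.242 TPM at E16 (limma adjusted p = 0.0759). Kalrn, Chn2 and Grip1 reached 1 TPM in no E16 library, so these 3 entered the test through E18 alone, and Kalrn and Chn2 are among the 7 at an unadjusted p under 0.05. Inppl1, a lipid phosphatase that binds Epha2, averaged 14.2 ± 3.32 TPM at E18 and 7.41 ± 0.353 TPM at E16 (limma adjusted p = 0.0877), with 20.3% of its exon length under exons on the other strand. Itsn1, an exchange factor for Cdc42 that works with Ephb2, averaged 8.20 ± 0.720 TPM at E18 and 4.05 ± 0.322 TPM at E16 (limma adjusted p = 0.0882). Among abundant partners 3 are given for scale, and none passed. Adam10, a protease that cuts ephrins, averaged 239 ± 21.0 TPM at E18 and 207 ± 3.41 TPM at E16. Rhoa, a GTPase of the cytoskeleton, averaged 60.9 ± 2.04 TPM at E18 and 60.2 ± 13.5 TPM at E16, and Cdc42, a related GTPase, 153 ± 24.5 TPM at E18 and 158 ± 48.8 TPM at E16. Their 95% intervals on the log2(TPM + 1) scale were −0.09 to 0.49, −0.39 to 0.47 and −0.58 to 0.55.

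**Figure D5:**
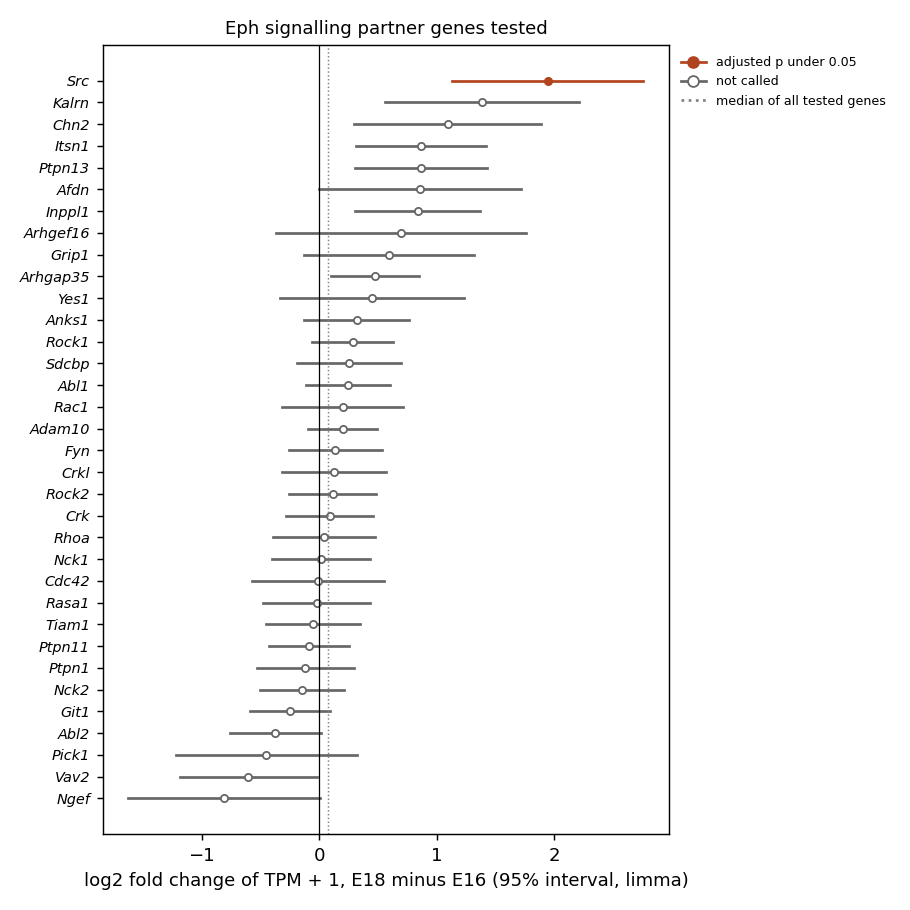
Log2 fold change of TPM + 1, E18 minus E16, with its 95% interval for 34 Eph signalling partners, ordered by size, filled orange where limma's adjusted p was under 0.05. Src alone was called, and the partners spread from −0.81 (Ngef) to 1.94 (Src) around the dotted median of all genes (0.07).

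The genes whose profile over the 6 libraries was nearest to each member were found among 12619 tested genes other than predicted gene models and the members. The measure was the root mean square difference of log2(TPM + 1) after each gene's own mean was taken off. Nearest to Epha3 were Fbn1, the fibrillin of matrix microfibrils (0.0554), and Pdgfra, a growth factor receptor of fibroblasts (0.0606). Pdgfra stood at 21.0, 55.9 and 20.7 TPM in E18 libraries A, B and C, against 2.51, 2.76 and 5.42 TPM in E16 libraries A, B and C, close to the Epha3 pattern in every library. Nearest to Epha4 were Kcp, a secreted modulator of BMP signalling (0.0844), and Gli2, a transcription factor of the Hedgehog pathway (0.0991). All 4 of these genes were called higher at E18 (limma adjusted p from 0.0328 to 0.0427). This is no separate result, since they were picked as nearest to called members in the same libraries.

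Nearest to Epha7 were Rin2 (0.0745) and Dnmbp (0.0796), both exchange factors for small GTPases. Nearest to Ephb4 were Sh3pxd2a, a scaffold of podosomes (0.0718), and Frmd6 (0.0929). Nearest to Efnb1 were Zfp516 (0.0678) and Dse, an enzyme of dermatan sulphate synthesis (0.0805). Nearest to Efnb2 were Ncs1 (0.0966) and Wnt4 (0.116), and nearest to Efna5 were Scube3 (0.178) and Adcy4 (0.192). Efna5 thus had the least close neighbours of the 7 members. With 6 libraries and many genes near matches arise easily, and these distances are descriptions only.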

How the data were processed

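RNA was measured in sorted reporter-positive liver cells. The authors deposited TPM for 54532 genes, of which 54409 were matched to a symbol. The submitters' processing notes name mm10, FastQC 0.11.7, Bowtie, HISAT2 2.1.0 and HTSeq 0.5.4p3, with no role or order. How strand was counted, which annotation served and how TPM was formed is not given in the sources used here. Per the labels' protocols the kit kept strand. Positions and exon lengths came from GENCODE M21 (mm10).

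TPM times exon length was a whole number of reads, to within 0.05, for 96.8% to 97.1% of values above 0. The test took the 17824 genes that reached 1 TPM in 3 or more libraries. It used limma 3.58.1 (R 4.3.3) on log2(TPM + 1), 2-sided, with an intensity trend and Benjamini-Hochberg adjustment. This scale understates the change of low genes. The steps were tested on simulated data, and figures were drawn with Matplotlib 3.10.9.

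The members and lists were chosen with earlier results of these data known. The text names the 7 members, every family gene, called partners, the partners of smallest p and the 2 nearest profiles per member. Adam10, Rhoa, Cdc42, Chn2, Grip1, Ngef and single marker genes were named after their values were seen. Alternatives were other pseudocounts, filters and scalings, array weights, covariates, the letter as a block and single libraries left out. Voom on recovered reads and leaving out both B libraries were added after seeing the data.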

Additional observations from a re-analysis of the deposited data

How the results depend on the processing

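Calls depended on the settings more than directions did. All 7 members stayed higher at E18 in every fit run except the one with the mesenchyme score as covariate, where Epha7 (−0.16), Ephb4 (−0.85), Efna5 (−0.57), Efnb1 (−0.43) and Efnb2 (−0.63) turned negative and Epha3 (0.11) and Epha4 (0.64) lost their calls. Epha3 and Epha4 also lost their calls with a pseudocount of 5 TPM (1.73 and 1.23), without a filter (2.72 and 2.31), with the hepatocyte score as covariate (2.51 and 2.03) and without both B libraries (2.18 and 1.83). With a filter at 5 TPM Epha4 alone lost it (2.31), Epha7 and Efnb2 were not tested, and 1 member and 1 other family gene were called. Array weights called Epha7 (0.93), Ephb4 (1.20) and Efnb1 (1.42) as well but lowered Efna5 to 0.49 from 1.49, and voom on recovered reads called Epha7 (1.84) and Efnb1 (1.81). Efnb2, at 1.11, was 0.19 with the hepatocyte covariate. Without both B libraries Efna5 was 0.82 and Efnb2 0.63, and with a pseudocount of 5 Epha7 was 0.61, Efna5 0.94 and Efnb2 0.57.

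Members called numbered 2, and 0 with a pseudocount of 5, without a filter, with either covariate or without both B libraries, 5 with array weights and 4 with voom. Other family genes called numbered 2, and 0 without a filter, with either covariate or without both B libraries, 1 with a pseudocount of 5, 6 with array weights and 4 with voom. Partners called higher numbered 1, and 0 without a filter, with either covariate, with quantile normalization or without both B libraries, 2 without the intensity trend, 8 with array weights and 6 with voom. Partners called lower numbered 0, and 4 with array weights.

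Over all genes 549 were called higher and 69 lower. These were 2795 and 1521 with array weights, 1291 and 178 with voom, 305 and 42 with a pseudocount of 5, 466 and 107 with median-of-ratios scaling, and 517 and 133 when hepatocyte, erythroid and mitochondrial genes and Gm26917 were left out of the scaling. The higher count was 360 with the 5 TPM filter and 314 with quantile normalization, which moved the median difference of all genes to −0.08 from 0.07. Both were 0 without a filter, with either covariate or without both B libraries. At an unadjusted p under 0.05, 3416, 1050 (hepatocyte), 327 (mesenchyme) and 2075 genes were higher in these fits, and 7, 0, 0 and 5 members. The replicate block, with the letter as a pair, called 0 genes higher and 0 lower, 0 members, 0 other family genes and 0 partners, with Epha3 at 2.72 and Epha4 at 2.31 (limma adjusted p = 0.0974 and 0.104). At an unadjusted p under 0.05, 2373 genes and 6 members were higher in that fit. Deviations of same-lettered libraries from their day means correlated at 0.102 (A), −0.139 (B) and −0.117 (C). Those of libraries with different letters correlated at −0.147 to 0.220. Deviations from a mean of 3 libraries depend on each other, so these values cannot settle whether the letters are pairs. The main fit was planned without pairs.

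Leaving out single libraries gave 0 to 531 genes higher and 0 to 133 lower, 0 to 3 members, 0 to 2 other family genes, 0 to 1 partners higher and 0 lower, and 5 to 7 members at an unadjusted p under 0.05. The 133 lower and 3 members came without E18 replicate C. In these fits the differences ran from 2.27 to 3.02 (Epha3), 1.94 to 2.53 (Epha4), 1.05 to 1.47 (Epha7), 0.98 to 1.78 (Ephb4), 1.07 to 1.93 (Efna5), 1.34 to 2.04 (Efnb1) and 0.82 to 1.42 (Efnb2). The log2 receptor to ligand ratio differed by 0.34 between the days, by 0.20 to 0.55 without single libraries, by 0.59 over the whole family and by 0.033 for Ephb4 to Efnb2. The cause of these changes was not tested. Members low at E16 rest on as few as 38 reads, which limits their folds.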
